A study of Mus musculus with 14 samples.

Results

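The regions described here are the H3K4me1 sites that lay between genes at an intermediate distance from transcriptional start sites (TSSs). A site counted when its centre was outside every gene of GENCODE M21 and more than 3 kb but at most 100 kb from the nearest TSS. Of 160144 deposited sites, 160108 were on chromosomes 1 to 19 and X, and 45273 of these (28.3%, 95% Wilson interval 28.1 to 28.5%) met this rule. Intervals for shares cover the counting of sites only, and neighbouring sites are not independent.

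The ChIP-seq libraries came from NG3 cells, a single clone of immortalized mouse embryo fibroblasts (iMEF). In every sample, controls included, exon 4 of endogenous Ash2l was deleted and a lentiviral construct supplied FKBP-HA2-ASH2L, an ASH2L fusion protein that the PROTAC dTAG-13 directs to degradation. Cells were kept without dTAG-13 or treated for 30 min, 2, 4, 8 or 16 h, with 2 libraries for each of the 6 conditions and 1 input library each for the control and the 16 h time point. Peaks were pooled into 1 set without a value for any library, so no time point, replicate error or test between conditions can be given. The paper states a planned minimum of raw reads per ChIP sample, but the depth that each library reached is not given.

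H3K4me1 is placed on nucleosomes by KMT2 methyltransferases, which work in complexes that share the core subunits WDR5, RBBP5, ASH2L and DPY30. Away from promoters the mark is typical of enhancers, both active and primed, and it usually flanks the nucleosome-depleted stretch that transcription factors occupy. The mark alone does not show that a region acts as an enhancer, and the nearest gene need not be its target.

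To show what such regions look like, the central 200 bp of the widest site are given for 6 of the 7 genes with the most sites nearby, all but Zfp608. All are from the plus strand of GRCm38.p6 (mm10), and capitals mark the AP-1 motif TGANTCA. The Cxcl12 sequence is chr6:117153658-117153857, 14.8 kb upstream of the gene, from a site of 3053 bp that lay 7.015 kb from the nearest TSS. The Rnd3 sequence is chr2:51236810-51237009, 87.8 kb upstream, from a site of 2071 bp that lay only 4.92 kb from the nearest TSS. The Adgrl2 sequence is chr3:148633439-148633638, 182 kb downstream, from a site of 2244 bp. The Actl7b sequence is chr4:56621202-56621401, 118.7 kb downstream, from a site of 2374 bp. The 1700129C05Rik sequence is chr14:58989003-58989202, 143.9 kb downstream, from a site of 3389 bp. The Nr2f2 sequence is chr7:70633856-70634055, 267.2 kb upstream, from a site of 2454 bp that lay only 4.65 kb from the TSS of another annotated transcript.
Cxcl12: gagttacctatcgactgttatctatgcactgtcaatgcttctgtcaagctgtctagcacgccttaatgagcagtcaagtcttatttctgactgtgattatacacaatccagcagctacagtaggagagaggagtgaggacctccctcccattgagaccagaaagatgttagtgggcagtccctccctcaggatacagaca
Rnd3: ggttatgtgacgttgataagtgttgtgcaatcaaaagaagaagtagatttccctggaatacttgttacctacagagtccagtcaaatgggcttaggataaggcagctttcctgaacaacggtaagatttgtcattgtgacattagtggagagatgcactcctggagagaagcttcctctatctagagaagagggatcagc
Adgrl2: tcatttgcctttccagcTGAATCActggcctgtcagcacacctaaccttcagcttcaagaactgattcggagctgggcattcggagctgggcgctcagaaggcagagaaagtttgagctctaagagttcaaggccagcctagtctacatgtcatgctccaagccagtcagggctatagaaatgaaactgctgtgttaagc
Actl7b: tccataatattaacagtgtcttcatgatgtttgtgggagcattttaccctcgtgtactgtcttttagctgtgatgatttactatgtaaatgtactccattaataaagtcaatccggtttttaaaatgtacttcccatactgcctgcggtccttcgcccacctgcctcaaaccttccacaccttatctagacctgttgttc
1700129C05Rik: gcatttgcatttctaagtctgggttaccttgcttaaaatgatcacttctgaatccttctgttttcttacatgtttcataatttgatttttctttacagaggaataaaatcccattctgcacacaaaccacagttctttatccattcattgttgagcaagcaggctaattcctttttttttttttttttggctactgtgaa
Nr2f2: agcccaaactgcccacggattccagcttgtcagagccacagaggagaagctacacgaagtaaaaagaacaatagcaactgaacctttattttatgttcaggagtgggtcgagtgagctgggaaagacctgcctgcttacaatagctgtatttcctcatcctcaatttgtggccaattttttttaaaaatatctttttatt

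The GC content of these 6 windows ranged from 33.0% at 1700129C05Rik to 50.0% at Adgrl2. Among these 6, an AP-1 motif was found in the Adgrl2 window only, a number too small to set against the share over all sites.

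A set of 3 further windows shows sites with several motifs. Among all 45273 sites, 27 held 3 AP-1 motifs in the central 200 bp, the highest number found, and 3 of the wider ones were chosen after their values were seen. They were nearest to Kcmf1, which encodes a zinc finger ubiquitin ligase (chr6:72926969-72927168, 27.1 kb upstream, site of 2265 bp), to Gata3, a transcription factor gene (chr2:9803010-9803209, 54.0 kb downstream, site of 1155 bp), and to Cdh17, a cadherin gene (chr4:11887761-11887960, 70.0 kb downstream, site of 1088 bp).
Kcmf1: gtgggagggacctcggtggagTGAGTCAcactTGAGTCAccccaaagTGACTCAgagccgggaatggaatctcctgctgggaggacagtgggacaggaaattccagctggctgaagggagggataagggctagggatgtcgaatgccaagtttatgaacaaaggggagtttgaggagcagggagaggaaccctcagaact
Gata3: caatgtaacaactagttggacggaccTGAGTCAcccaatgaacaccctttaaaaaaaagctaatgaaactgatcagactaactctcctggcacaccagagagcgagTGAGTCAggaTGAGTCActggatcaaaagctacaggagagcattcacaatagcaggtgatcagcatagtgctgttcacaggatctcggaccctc
Cdh17: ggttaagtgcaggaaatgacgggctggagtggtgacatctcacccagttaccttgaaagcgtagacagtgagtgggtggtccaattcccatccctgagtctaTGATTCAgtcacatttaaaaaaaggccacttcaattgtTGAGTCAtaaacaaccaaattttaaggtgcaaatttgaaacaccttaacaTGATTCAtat

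The sequence that met the rule amounted to 1047 Mb (40.9% of chromosomes 1 to 19 and X without assembly gaps), and sites covered 3.45% of it. Per Mb of such sequence there were 43.2 intergenic sites. In genes more than 3 kb from a TSS there were 71.9 sites per Mb, and within 1 kb of a TSS there were 158. Intergenic sequence more than 100 kb from any TSS held 3452 sites, 19.4 per Mb. Repeat-masked sequence made up 40.4% of the intergenic sequence and 29.5% of the sequence in genes. Counted per Mb that is not repeat-masked, the densities were 72.5 between genes and 102 in genes, so the intergenic sites stayed the sparser class.

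For most sites the nearest TSS was not that of a protein-coding gene. For 16279 sites (36.0%) it belonged to a protein-coding gene, for 10692 (23.6%) to a lincRNA or antisense gene, for 10942 (24.2%) to a pseudogene and for 7360 (16.3%) to another annotated gene. The median width was 593 bp for sites nearest to a coding TSS and 495 bp for those nearest to a pseudogene TSS. From the edge of the nearest protein-coding gene the median distance was 35.2 kb (quartiles 11.9 and 100.5 kb), and 11363 sites were more than 100 kb away from one.

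Intergenic sites became sparser and narrower with distance from the nearest TSS, which they had at a median of 18.5 kb (quartiles 9.07 and 36.0 kb). There were 53.0 sites per Mb at 3 to 5 kb, 50.7 at 5 to 10 kb, 49.4 at 10 to 20 kb, 42.3 at 20 to 50 kb and 29.4 at 50 to 100 kb. Density was 1.75 times higher at 3 to 10 kb than at 50 to 100 kb (95% interval 1.70 to 1.80), and on the 19 autosomes this ratio ranged from 1.21 on chromosome 17 to 2.40 on chromosome 5. With protein-coding genes and their TSSs only, the decline was much weaker, at 1.13 times (95% interval 1.097 to 1.164). The median width was 583 bp at 3 to 5 kb and 482 bp at 50 to 100 kb. At the inner limit of the rule the numbers on either side were close: 2191 sites outside genes lay at 2 to 3 kb and 2162 at 3 to 4 kb, with median widths of 575 and 583.5 bp. At the outer limit 762 sites lay at 90 to 100 kb and 618 at 100 to 110 kb, with median widths of 483.5 and 421.5 bp.

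Upstream and downstream sides of the nearest protein-coding gene held sites at nearly the same density. In total, 23952 sites (52.9%, 95% Wilson interval 52.4 to 53.4%) were upstream and 21321 were downstream. The upstream side also provided 52.8% of the sequence, so the densities were 43.3 and 43.2 sites per Mb, a ratio of 1.003 (95% interval 0.984 to 1.021). The median width was 542 bp upstream (quartiles 325 and 961 bp) and 561 bp downstream (quartiles 333 and 982 bp). The share with an AP-1 motif was likewise similar, 15.2% upstream and 15.5% downstream.

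A weak opposite trend by distance to the nearest TSS of any gene lay beneath this ratio. Upstream sequence held 1.06 times as many sites per Mb as downstream sequence at 3 to 5 kb from a TSS, 1.07 times at 5 to 10 kb, 1.02 times at 10 to 20 kb, 0.963 times at 20 to 50 kb and 0.881 times at 50 to 100 kb. At 50 to 100 kb this corresponded to 27.6 sites per Mb upstream and 31.3 downstream. By distance to the edge of the nearest protein-coding gene, which sets the side, the ratio did not fall up to 50 kb. It was 1.02 at 3 to 5 kb, 1.06 at 5 to 10 kb, 1.07 at 10 to 20 kb and 1.086 at 20 to 50 kb. Farther out it was 1.009 at 50 to 100 kb and 0.973 beyond 100 kb. The ratio over all distances depended on which sequence was counted. The first 3 kb beyond a gene end could only be downstream, because the rule bars sequence close to a TSS, and they were the densest per Mb of all sequence, at 66.8. With repeat-masked bases left out they held 99.0 per Mb, fewer than the 105 at 3 to 5 kb, 106 at 5 to 10 kb and 103 at 10 to 20 kb from the gene edge. When these were left out, the ratio was 1.044 (95% interval 1.024 to 1.064). By chromosome, the ratio ranged from 0.846 on chromosome 13 to 1.34 on chromosome 7 and was above 1 on 10 of 19 autosomes. The orientation of the flanking genes made a small difference, with 44.9 sites per Mb between divergent genes, whose starts both face the stretch, 42.6 between convergent genes and 42.9 between genes in tandem.

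**Figure D1:**
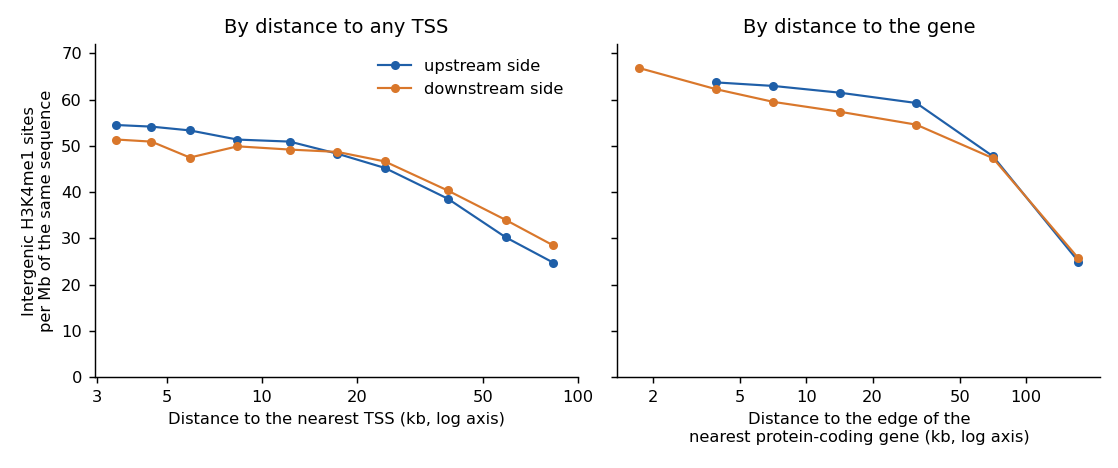
Intergenic H3K4me1 sites per Mb of the sequence that meets the same rule, by distance to the nearest TSS of any gene (left) and to the edge of the nearest protein-coding gene (right), each on a log axis in kb, on the upstream (blue) and downstream (orange) side. Density falls from 53.0 sites per Mb at 3 to 5 kb from a TSS to 29.4 at 50 to 100 kb. The curves of both sides cross on the left, and the last point on the right stands for all sites more than 100 kb from a coding gene, 25.3 sites per Mb over both sides.

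Intergenic sites were short, and many had another site close by. Their median width was 551 bp (quartiles 329 and 970 bp), 10% were wider than 1636 bp, and 1390 had the smallest width in the table, 200 bp. The medians were 569 bp in genes more than 3 kb from a TSS and 971 bp within 1 kb of a TSS. Few intergenic sites, 194, reached 5000 bp, and those of at least 2000 bp (6.36%) made up 24.04% of the summed width.

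The gap to the nearest site of any kind had a median of 1694 bp (quartiles 510 and 5549 bp). It was under 1 kb for 39.9% of the sites and over 10 kb for 15.0%. Gaps of 300 to 400 bp were the most frequent, with 4978 sites (11.0%) in this bin, while only 1.59% of the gaps were under 200 bp. The nearest site was itself an intergenic site at 3 to 100 kb from a TSS in 85.8% of cases and lay within 1 kb of a TSS in 5.52%. Wide sites had closer neighbours: the median gap was 2068 bp in sites of 200 to 328 bp, the narrowest of 4 groups of about equal size, and 1186 bp in the widest group (970 bp and more). Whether some of the close neighbours are parts of 1 wider domain that was split into several sites was not tested. Sites in genes more than 3 kb from a TSS were spaced more closely than these intergenic sites. Their median gap was 1028 bp, with 49.5% under 1 kb. Intergenic sites more than 100 kb from a TSS were spaced more widely, with a median gap of 2654.5 bp.

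**Figure D2:**
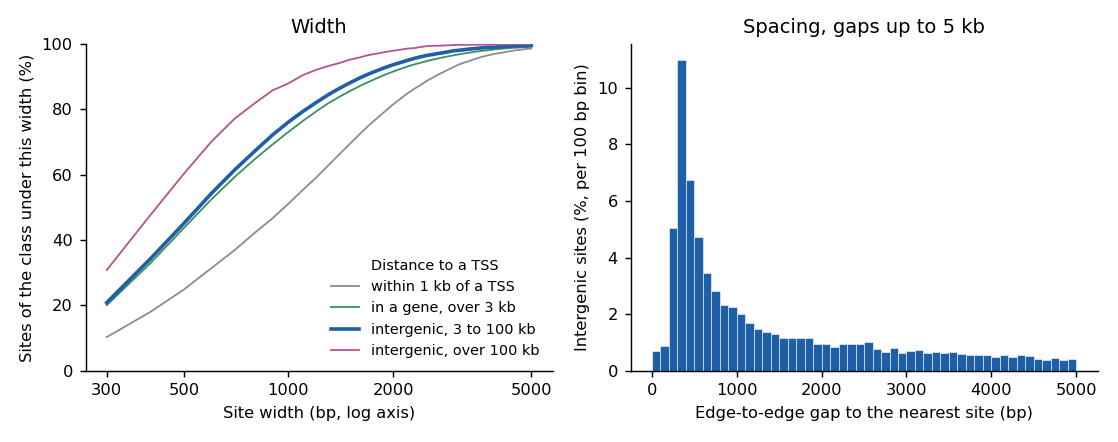
Left, the share of sites narrower than a given width (bp, log axis) for intergenic sites at 3 to 100 kb from a TSS (thick blue) and for 3 other classes. The intergenic curve follows that of sites in genes, with medians of 551 and 569 bp. Right, the share of intergenic sites by edge-to-edge gap to the nearest site, in bins of 100 bp up to 5 kb, with the highest bar (11.0%) at 300 to 400 bp.

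The sites were unevenly distributed over the stretches between genes. Of 21243 stretches of at least 10 kb, 10494 (49.4%) held a site, with a median of 3 where there was one. When all 36493 stretches of any length were ranked by their number of sites, the first 1993 held 50% of all intergenic sites. Long stretches have room for more sites, and the share of sequence in these 1993 was not taken. The fullest stretches held 42 sites, and both were on chromosome 2. The first lay between Rasgrp1, which encodes a guanine nucleotide exchange factor for Ras, and Thbs1, which encodes the matrix protein thrombospondin 1 (chr2:117417698-117802116), with 34 and 8 sites. The second was divided between the somatostatin receptor gene Sstr4 and the transcription factor gene Foxa2 (chr2:148151463-148395343), with 23 and 19. Next came the 161.6 kb stretch beside Irf2bp2 on chromosome 8 with 40 sites, 24.8 per 100 kb.

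Chromosome X stood apart. It held 814 intergenic sites, 8.86 per Mb, whereas the autosomes ranged from 36.6 on chromosome 7 to 63.1 on chromosome 11. Per Mb that is not repeat-masked the value was 18.8 on X and at least 59.4 on the autosomes. Density on X was 0.19 of that on the autosomes for these sites, 0.259 for sites in genes and 0.60 for sites within 1 kb of a TSS. Sites on X were also narrower, with a median of 434.5 bp, but their share with an AP-1 motif was 16.1%, within the autosomal range of 14.1 to 16.7%.

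The base composition of intergenic sites differed from that of the sequence around them. GC content was 48.2% within sites and 40.7% in site-free sequence that met the rule, and the ratio of observed to expected CpG was 0.209 and 0.169. Within sites 18.9% of the bases were repeat-masked on average, and 40.4% of the whole intergenic sequence was. Other classes showed the same kind of difference. In genes more than 3 kb from a TSS, GC content was 48.0% within sites and 41.7% in site-free sequence. The repeat-masked shares there were 17.4% of sites and 29.5% of sequence. For intergenic sites more than 100 kb from a TSS, GC content was 46.7 and 38.4%.

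Short words that match the core of transcription factor motifs were counted in the central 200 bp of each site. The words were TGANTCA for AP-1, the dimers of Fos and Jun proteins, GGAATG for TEAD factors, TGTGGT for RUNX factors, CCGGAA for ETS factors, TTGCNNAA for C/EBP factors, AGGGGGC for CTCF and CACGTG for E-box factors. Both strands were searched, and each word was counted on its own, so that overlapping words count for each. As background served 1001773 windows of 200 bp without a site, taken every 1 kb from sequence that met the rule. A match is a description of the letters and does not show binding.

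AP-1 had the largest ratio among the 7 words. It was present in 6943 sites (15.3%, 95% Wilson interval 15.0 to 15.7%) and in 5.68% of the site-free windows, a ratio of 2.70. Over the site-free windows and the central windows of all sites together, in all classes, the share was 6.10%. By class of site, the share was 6.96% within 1 kb of a TSS, 13.2% in genes more than 3 kb from a TSS, and 16.7% (95% Wilson interval 15.5 to 17.9%) in intergenic sites more than 100 kb away. Within the intergenic sites at 3 to 100 kb it was highest nearest to the TSS, with 16.4% at 3 to 5 kb, and lay between 14.9 and 15.7% farther out. Across the same 4 groups by width, the share was 14.3% in the narrowest, 16.3 and 16.5% in the middle ones and 14.2% in the widest.

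GC content moved with this result, and the share was therefore also taken within bands of GC. At 35 to 40% GC, AP-1 was found in 14.5% of the sites and 5.77% of the windows. At 45 to 50% it was found in 16.6 and 5.59%, and at 55 to 60% in 12.7 and 3.43%. The ratio was above 1 in all 7 bands and lowest, at 1.64, under 35% GC. In 100 bp bins around the site centre, AP-1 starts peaked at the centre with 85.3 per 1000 sites and fell to 34.4 at 2 to 3 kb on either side, a ratio of 2.48. The same ratio was 2.53 for intergenic sites more than 100 kb from a TSS, 2.21 for sites in genes and 1.26 for sites within 1 kb of a TSS.

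**Figure D3:**
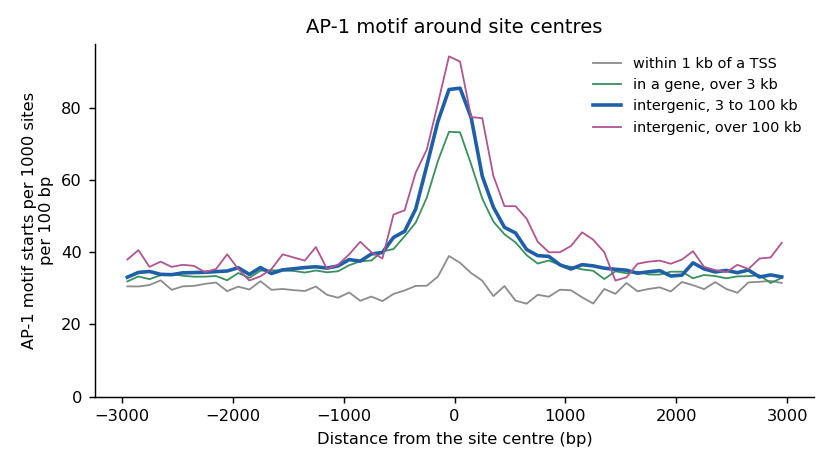
AP-1 motif starts per 1000 sites in bins of 100 bp, by distance from the site centre (bp), for intergenic sites at 3 to 100 kb from a TSS (thick blue) and 3 other classes. Intergenic sites peak at 85.3 at the centre and level off at 34.4, those more than 100 kb from a TSS reach 94.1, and sites within 1 kb of a TSS reach 38.9.

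The other words differed less. ETS was found in 2.60% of intergenic sites and 1.31% of site-free windows, CTCF in 2.62 and 1.28%, and E-box in 3.07 and 1.68%. TEAD was found in 16.3 and 10.9%, and RUNX in 17.7 and 13.3%. ETS and CTCF were more frequent within 1 kb of a TSS, at 7.01 and 5.23%. C/EBP went the other way, with 8.35% of the sites and 9.78% of the windows. Unlike AP-1, these words were not compared within bands of GC. How far their ratios go with base composition was not tested.

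Every intergenic site was assigned to the protein-coding gene whose edge was nearest. Of 21755 such genes, 8451 (38.8%) were nearest to at least 1 site. The 413 genes with at least 20 sites held 27.1% of the sites, on 13.8% of the sequence. They were picked by their number of sites, so the larger share of sites comes with the choice and does not measure concentration. The number of such genes depends on how sites are divided. It was 219 with sites merged within 1 kb and 98 with sites of at least 500 bp only. At the other end, 994 of 4241 genes with at least 50 kb of such sequence had none. Across the 17794 genes with any such sequence, the number of sites and the length of sequence had a Spearman correlation of 0.561, a description across genes, which are not independent replicates.

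Genes that had an H3K4me1 site at their own promoter, within 1 kb of a TSS, had denser surroundings. There were 54.3 intergenic sites per Mb nearest to 11894 genes with a promoter site and 17.9 nearest to 5900 genes without one, a ratio of 3.03. The ratio was above 1 on all 20 chromosomes and ranged from 1.44 on chromosome 15 to 9.64 on chromosome 7. It held on both sides, with 54.0 and 17.3 sites per Mb upstream and 54.7 and 18.6 downstream. Both sets of sites stem from the same libraries and peak calls.

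The 25 genes nearest to the most sites are listed next by their known roles. Secreted and cell surface proteins included Cxcl12, a stromal chemokine, with 81 sites, the highest number. Adgrl2, which encodes the adhesion receptor latrophilin 2, had 75, Npr3, which encodes the natriuretic peptide clearance receptor, had 50, and Fn1, which encodes fibronectin, had 49. Rnd3, an atypical small GTPase gene that acts on the actin cytoskeleton, followed Cxcl12 with 80.

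Genes of transcription factors and co-regulators were also among the 25. Nr2f2, an orphan nuclear receptor of mesenchyme, had 63 sites, Klf6 and Sox9, the chondrogenic regulator, had 60 each, Cited2 had 59 and Med13l, which encodes a subunit of Mediator, had 58. Myc and Zeb2, a repressor of epithelial genes, had 56 each, Tbl1xr1, which encodes a subunit of the NCoR corepressor complex, had 53, Maf had 52, Runx1 had 51 and Irf2bp2 had 49. Zfp608, a zinc finger gene, had 66. Gadd45g, a stress response gene, had 51.

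The remaining 7 were Actl7b with 70, 1700129C05Rik with 63, Eif3h, a translation initiation factor gene, with 57, Ankrd50 with 56, Tnp1 with 50, and Actbl2 and Lyplal1 with 49 each. Actl7b and Tnp1 are testis genes, and neither they nor 1700129C05Rik and Actbl2 had a promoter site, unlike the other 21. The order at the end of this list was close, since the gene that followed the 25 also had 49.

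Number and density ranked genes differently. The 25 had between 191.6 kb (Irf2bp2) and 1370 kb (Adgrl2) of intergenic sequence, and their densities ranged from 4.35 sites per 100 kb at Tbl1xr1 to 25.6 at Irf2bp2, with a median of 12.3. Over all genes together the value was 4.32. Cxcl12 and Rnd3 reached 16.4 and 16.6 sites per 100 kb. Adgrl2 reached only 5.47, so its 75 sites went with a long stretch of sequence. None of the 25 was among the 10 densest genes.

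The side on which these sites lay mostly followed where the sequence was. Actl7b had all 70 sites downstream and no upstream sequence that met the rule, and Fn1 had all 49 upstream, where 98.6% of its sequence lay. Sox9 had 13.6 sites per 100 kb on each side. Other genes were unequal per length, in either direction. At Tbl1xr1, 51 sites lay in 621 kb upstream (8.21 per 100 kb) and 2 in 597.8 kb downstream (0.335 per 100 kb). At Med13l, the values were 24.1 per 100 kb upstream (28 sites) and 7.50 downstream (30 sites). At Maf they were 13.9 upstream (43 sites) and 5.91 downstream (9 sites). Myc was denser downstream, with 9.05 upstream and 13.1 downstream, as were Zeb2 with 4.44 and 35.7, Npr3 with 5.88 and 24.4, Cited2 with 5.20 and 20.2 and Tnp1 with 12.0 and 24.4. In these last 4 genes, 1 of the sides had under 40 kb of sequence. Among the 25, 13 had more sites upstream than downstream.

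**Figure D4:**
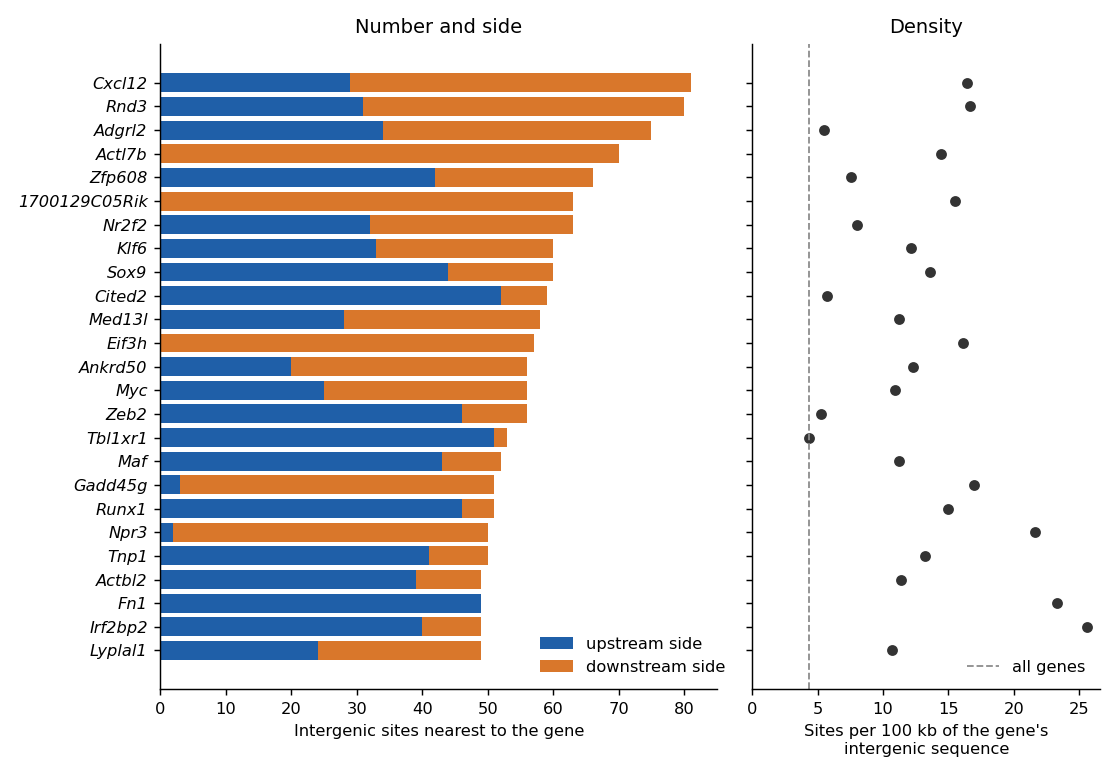
The 25 protein-coding genes nearest to the most intergenic H3K4me1 sites. Left, number of sites upstream (blue) and downstream (orange) of the gene, from 81 at Cxcl12 to 49 at Lyplal1. Right, sites per 100 kb of the intergenic sequence nearest to the gene, with all genes together (4.32) as a dashed line. Tbl1xr1 lies on that line, and Irf2bp2 is highest with 25.6.

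The share of sites with an AP-1 motif at these 25 genes was 15.9% (233 of 1463), close to the 15.3% over all intergenic sites. It ranged from 10.0% at Klf6 (6 of 60) to 24.5% at Lyplal1 (12 of 49).

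The densest surroundings were found at genes with moderate numbers of sites. Among the 4241 genes with at least 50 kb of sequence, the median was 3.30 sites per 100 kb and the 95th percentile 17.7. Plau, which encodes the urokinase plasminogen activator, was highest with 38.0 (21 sites in 55.3 kb). Cdkn2b, a cell cycle inhibitor gene, followed with 37.3 (34 sites, 29 of them upstream, where 93.6% of its sequence lay). Per 100 kb, Cdkn2b had 34.0 sites upstream and 85.9 downstream, the latter from 5 sites in 5.82 kb. Spp1, which encodes osteopontin, had 34.9, Pofut2 33.6, Itga11, a collagen-binding integrin gene, 32.7, and Arf6, a small GTPase gene, 32.6. Ccdc80, Slc1a1, Dlg2 and Dlg1 completed the 10 with 32.3, 30.4, 30.4 and 30.1. All 10 had a promoter site, as did 68.4% of all protein-coding genes and 90.1% of those with 10 to 19 intergenic sites.

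At the scale of 50 kb, the fullest windows held 22 sites each. The first lay in front of Spp1, where 16 of the sites were nearest to Spp1 and 6 to its neighbour Mepe, both genes of mineralized tissue proteins (chr5:104374185-104424184), and its sites had a summed width of 20.2 kb. The second lay upstream of the kinase gene Map4k3 (chr17:80753638-80803637), also with 20.2 kb. Windows at Erv3 (21 sites), Tgfb2, a growth factor gene, and Rasgrp1 (20 each) followed.

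The widest sites were found near other genes. The widest measured 19179 bp and lay 114.9 kb upstream of Klf14 but 10.5 kb from the nearest TSS (chr6:31064364-31083542). The next were 17097 bp at Frmd8, 12048 bp at Gadd45b, 11882 bp at Txn2 and 11370 bp at Card10. Only the centre had to meet the rule, so a wide site could extend to a TSS or into a gene. The Gadd45b and Card10 centres lay 5.34 and 3.10 kb from a TSS, and both sites extended over it. The Frmd8 and Txn2 centres lay 8.80 and 26.4 kb from a TSS. Of all intergenic sites, 419 (0.93%) reached into a gene. The GC content of the 5 widest sites was 49.9 to 55.7%, above the 48.2% of intergenic sites together. Among them, the Gadd45b site alone had an AP-1 motif at its centre.

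Lists of genes with roles in fibroblasts were compared with other lists by the number of their genes nearest to at least 1 site and by the density over the list. Of 20 extracellular matrix genes, 19 were nearest to a site, against 38.8% of all genes, with a median of 14 sites and a density of 12.9 per 100 kb. Only 17794 of all 21755 genes had any sequence that met the rule, whereas all 20 matrix genes did. Fn1 had the most with 49, followed by Thbs2, which encodes thrombospondin 2, with 39 and Postn, which encodes periostin, with 30. Lum, which encodes lumican, was the one with none in 37.6 kb.

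Growth factor receptor and TGF-beta genes were similar, with 17 of 19 nearest to a site and 12.0 per 100 kb. Tgfb2 had 45 sites, all downstream, where 191.7 kb of its sequence lay against 1.11 kb upstream. The signalling inhibitor Smad6 had 26. Pdgfra, a receptor gene typical of fibroblasts, had 2 in 172.5 kb, or 1.16 per 100 kb. Axl and Tgfb3 had no sequence that met the rule.

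The contractile cytoskeleton list was the densest, at 23.0 sites per 100 kb, with 11 of 15 genes nearest to a site. This value rested on 97 sites in 422.6 kb, the lists above having 1947 kb or more. Tpm1, a tropomyosin gene, had 27 sites at 29.5 per 100 kb, and Acta2, which encodes smooth muscle actin, had 7 in 14.9 kb. Tagln and Cnn2 had no such sequence, and Myl9 had none in 25.7 kb.

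Among AP-1 and early response genes, 12 of 17 were nearest to a site, with 11.8 per 100 kb. The 3 with at least 20 sites were Klf6, Myc and Klf4 (60, 56 and 43), which carried most of the 216 sites of the list. Of the genes of AP-1 subunits, Fos and Fosl2 had 12 each and Jun had 8, while Junb, Jund and Fosl1 had none, each with under 10 kb of sequence. Egr2, an early response transcription factor gene, had none in 91.4 kb. Of 20 mesenchymal transcription factor genes, 14 were nearest to a site, with 8.17 per 100 kb. Zeb2 and Runx1 led with 56 and 51, Twist1 had 6 and Snai1 had 2.

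Lineage genes of other cells reached 6.02 sites per 100 kb with 13 of 28 genes, among them Foxa2 with 33 sites and Ptprc, the leukocyte gene for CD45, with 27. Olig2 and Alb had none in 72.4 and 50.3 kb. Housekeeping genes reached 6.28 with 5 of 10, a value that rested on Actr3, which encodes a subunit of the Arp2/3 complex, with 22 of the 32 sites and 435.55 of the 509.8 kb. Without Actr3 the value was 13.5 (10 sites in 74.3 kb), above that of the extracellular matrix list. Genes of H3K4 methylation and demethylation reached 6.95, from 12 sites at 4 of 16 genes, and 4.61 without Wdr5, which had 7 of them. Ash2l itself had 0.006 kb of intergenic sequence that met the rule and no site. All lists exceeded the value over all genes, 4.32. The counting intervals of housekeeping genes (4.29 to 8.86) and of genes of H3K4 methylation and demethylation (3.59 to 12.1) included 4.32. Over all genes, density fell with distance from the gene edge, from 57.2 sites per Mb at 20 to 50 kb to 25.3 beyond 100 kb. Whether the lists exceed other genes at like distances, or other genes with a promoter site, was not tested. Several lists rest on little sequence, 172.8 kb for the last one.

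**Figure D5:**
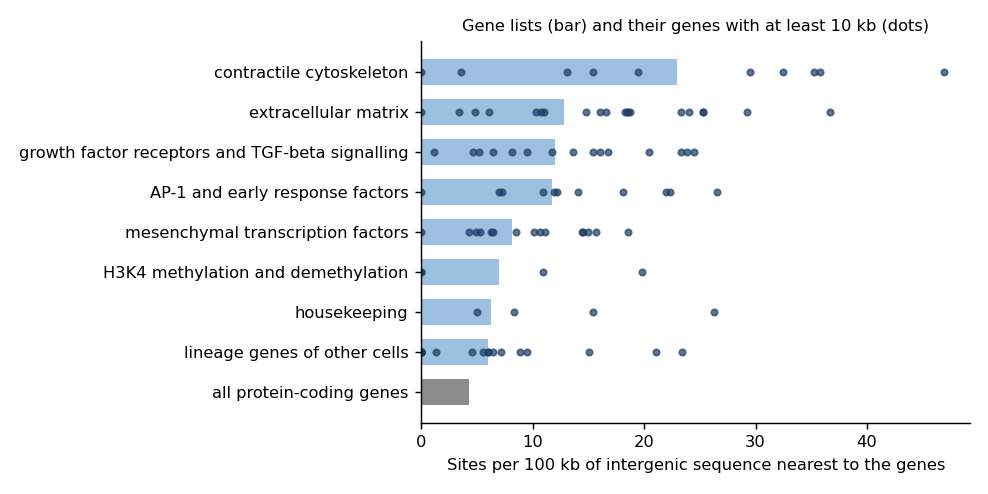
Intergenic H3K4me1 sites per 100 kb of the sequence nearest to the genes of each list (bars), with single genes that have at least 10 kb of such sequence as dots. The contractile cytoskeleton list is highest at 23.0, and all protein-coding genes together (grey) are at 4.32.

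Marker genes were used to check the cell type in the labels. A promoter site was present at 68.4% of all protein-coding genes, at 11 of 12 fibroblast genes, Col3a1 being the exception, and at 1 of 5 blood genes and 1 of 3 muscle genes. It was also present at 5 of 6 epithelial, 4 of 4 endothelial and 4 of 5 neural genes, so presence of the mark at a promoter did not separate these types from fibroblasts. Intergenic sites per 100 kb were 11.3 for the fibroblast, 16.2 for the epithelial, 10.1 for the muscle, 7.19 for the endothelial, 5.66 for the blood and 3.98 for the neural genes.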

How the data were processed

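H3K4me1 ChIP-seq was performed on 12 libraries and 2 inputs. According to the study's methods, the authors trimmed and aligned the reads to mm10, merged the replicates and called broad peaks with Macs. The submitters' processing notes name BWA, SAMtools, MACS2, deepTools and DESeq2, and versions and peak-calling thresholds are not given in the sources used here. The deposited table gives 1 pooled set of peaks by chromosome, start and end, counted from 0. Coordinates printed here are counted from 1. The table holds no counts, so the depth of each library is unknown and no test between conditions was made.

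The sequence was GRCm38.p6, and distances were taken to the TSSs of 139486 GENCODE M21 transcripts (130588 distinct positions), from the centre of each site. The later release M25 of the study was not used here. Every sequenced base was classed by the same rule, which gave the sequence for each density. Side was that of the protein-coding gene with the nearest edge. Intervals of shares are 95% Wilson intervals, those of density ratios were derived from them, and densities carry no replicate error. Python 3.11.15, numpy 2.4.6, scipy 1.17.1 and matplotlib 3.10.9 were used. On simulated data, class and distance were right for 100% of 4000 positions and the side for 100% of 2823.

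The genes named are the 25 nearest to the most sites, the 10 densest with at least 50 kb of sequence, those at the 5 widest sites and 5 fullest 50 kb windows, and examples from 8 lists. The members and lists were chosen with earlier results of these data known. Genes at the fullest stretches between genes and at the 3 windows with several AP-1 motifs were named after their values were seen. Alternatives concerned the genes and TSSs used, the distance limits, a minimum width, merging of sites and the motif window.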

Additional observations from a re-analysis of the deposited data

Results flagged for a closer look

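The table also held 36 sites on 12 scaffolds outside the chromosomes, with widths from 200 to 2956 bp. They could not be placed relative to the genes of the chromosomes and entered no comparison, and they are listed here because they are signal in data that was not analysed.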

How the results depend on the processing

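Of 39 alternatives over 8 results, 14 left the value within its interval or within 1.5 times of the main count, 25 moved it and none turned a direction that had been called. A minimum width of 500 bp left 24861 sites, an upstream share of 52.1%, an upstream to downstream ratio of 0.972, a near to far ratio of 2.09, a median width of 909 bp, a median gap of 3076 bp and 98 genes with at least 20 sites. Merging sites within 1 kb gave a near to far ratio of 1.68, a median width of 694.5 bp, a median gap of 4032 bp and 219 genes with at least 20 sites. With the side taken from the nearest protein-coding TSS, the upstream share was 62.7% and the ratio of densities 1.118. With protein-coding genes and TSSs only, the upstream share was 58.0% and the near to far ratio 1.13. Beyond 10 kb from a TSS the share was 50.9% and the ratio of densities 0.968. Beyond 3 kb from the gene edge on both sides, they were 55.6% and 1.044. Measured as bases covered, the upstream to downstream ratio was 0.971 and the near to far ratio 2.23. The upstream to downstream ratio thus lay on either side of 1 depending on the setting. Among intergenic sites only, the median gap was 1908 bp. The share with an AP-1 motif was 7.56% in the central 100 bp, 22.1% in the central 300 bp and 38.6% in the whole site, windows of unequal length. Of the 25 genes with the most sites, 18 remained with the nearest protein-coding TSS, 21 with merged sites and 13 with sites of at least 500 bp.

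The distance from the gene edge on both sides, densities per Mb that is not repeat-masked, and gene lists without their gene with the most sequence, were alternatives added after seeing the data. Leaving out that gene changed the density of a list by over 1.5 times for housekeeping genes (13.5 per 100 kb without Actr3). The same held for genes of H3K4 methylation and demethylation (4.61 without Wdr5), which stayed within their counting interval of 3.59 to 12.1. Housekeeping genes left their interval. So did mesenchymal transcription factor genes (9.66), extracellular matrix genes (14.4) and the growth factor receptor and TGF-beta list (13.65), by smaller changes. The set gives presence of a site in at least some of the samples, and not its height, time point or error. No paired analysis was possible because peaks were pooled over the libraries, so there was also no replicate to leave out.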

Other observations

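Annotation decided whether some sites counted as intergenic. GENCODE M21 holds protein-coding genes of unusual length, of which Gm20388 on chromosome 8 spans 4.43 Mb and holds 580 H3K4me1 sites, and Fgfr2, a fibroblast growth factor receptor gene, spans 2.96 Mb and holds 333. By comparison, Dmd, which spans 2.26 Mb on chromosome X, holds 11, and Cntnap2, a neuronal gene of 2.25 Mb, holds 10. Sites within such long annotated genes are not intergenic by the rule used here, whatever lies near them.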
